A study of Drosophila melanogaster with 9 samples.

Results

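The ecdysone response genes examined here were 10 of the 17421 genes in the deposited gene tables, chosen by name: the receptor genes EcR and usp, the early response genes br, Eip74EF and Eip75B, the nuclear receptor genes Hr4, Hr39, Hr78 and ftz-f1, and Kr-h1. RNA-Seq libraries were made from dorsal organs, the main olfactory organs of the larval head, of Drosophila melanogaster larvae in the third instar. There were 4 wild-type and 5 Orco mutant libraries, each from a pool of 20 organs isolated independently. All larvae were in a w1118 background and carried 2 copies of Orco-Gal4 and UAS-mCD8-GFP (written Orco-Gal4 > UAS-mCD-8GFP in the sample labels), so that GFP marked the olfactory receptor neurons (ORNs) in both genotypes, and the mutants were in addition homozygous for the null allele orco1. The stage was given as the third instar, with no hour or size within it, so a difference in age between pools and a difference between genotypes cannot be told apart. Dissected tissue around the chemosensory organs was treated with collagenase, after which the GFP-positive dorsal organs were separated by hand, and they hold ORNs, other sensory neurons, support cells and whatever tissue stayed attached. In such bulk samples fewer cells of a type and less RNA per cell cannot be told apart.

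Ecdysone is the steroid hormone that times molting and metamorphosis in insects. Its active form binds a heterodimer of the nuclear receptors EcR and Usp, which switches on a small set of early genes encoding transcription factors, and these in turn regulate later genes and repress their own transcription. Pulses of the hormone late in the third instar end larval feeding and start pupariation, while juvenile hormone, acting in part through Kr-h1, holds back metamorphosis. In neurons the same receptor and early genes are known for remodeling of larval circuits. Some EcR and br isoforms come from separate promoters that differ in where and when they are used, and others share a start.

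The libraries held between 4090474 and 9157645 estimated counts, of which rRNA genes took between 33.3% and 53.8%, and between 6790 and 10935 genes had a count. Orco was present in all wild-type libraries at 1025 to 1819 counts and at 0 to 16 counts in the mutants. The list of ORN markers, which includes Orco, was summed in CPM (counts relative to a library size scaled by TMM, an edgeR normalization). The sum was 306 to 500 CPM in wild-type and 5.12 to 35.7 CPM in the mutants. Orco alone took 229 to 385 CPM in wild-type. Of the 6 ORN markers that entered the gene test, 5 had a negative log2 fold change of Orco mutant over wild-type. Among all genes tested, 49.9% were positive. The 5 include Orco itself, which the genotype removes. Orco and Or35a (497 counts in wild-type, 2 in the mutants) passed the filter on low counts only through wild-type libraries, and acj6 through the mutants. This count of signs is therefore no test. The marker acj6 had a positive log2 fold change (2.66, edgeR adjusted p = 0.997). The summed neuron, glia and support cell markers had counts in all 9 libraries, but not each single marker. The glia markers alrm and Eaat1 had counts in 2 and 3 libraries, and the support cell marker Obp99a in 2. Gs2, at 770 to 1900 CPM, made up most of the glia sum of 867 to 1988 CPM. Of the 10 genes, 9 passed the filter on low counts and entered a test over 8160 genes, and ftz-f1 did not.

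No ecdysone response gene was called different between the genotypes. With edgeR's quasi-likelihood test and an adjusted p under 0.05, 0 of the 9 tested genes were called, against 0.0368% of all genes tested (3 of 8160). At an unadjusted p under 0.05 the count was also 0 of 9, against 4.96% of all genes, and DESeq2 called 0 of the 9, against 0.748% of all genes. In 0 of the 9 genes were the libraries of the genotypes fully separated, against 3.87% of all genes. The log2 fold change of Orco mutant over wild-type was positive for 6 genes and negative for 3, against 49.9% positive among all genes, and its median was 0.25 against a median of -0.001 over all genes.

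**Figure D1:**
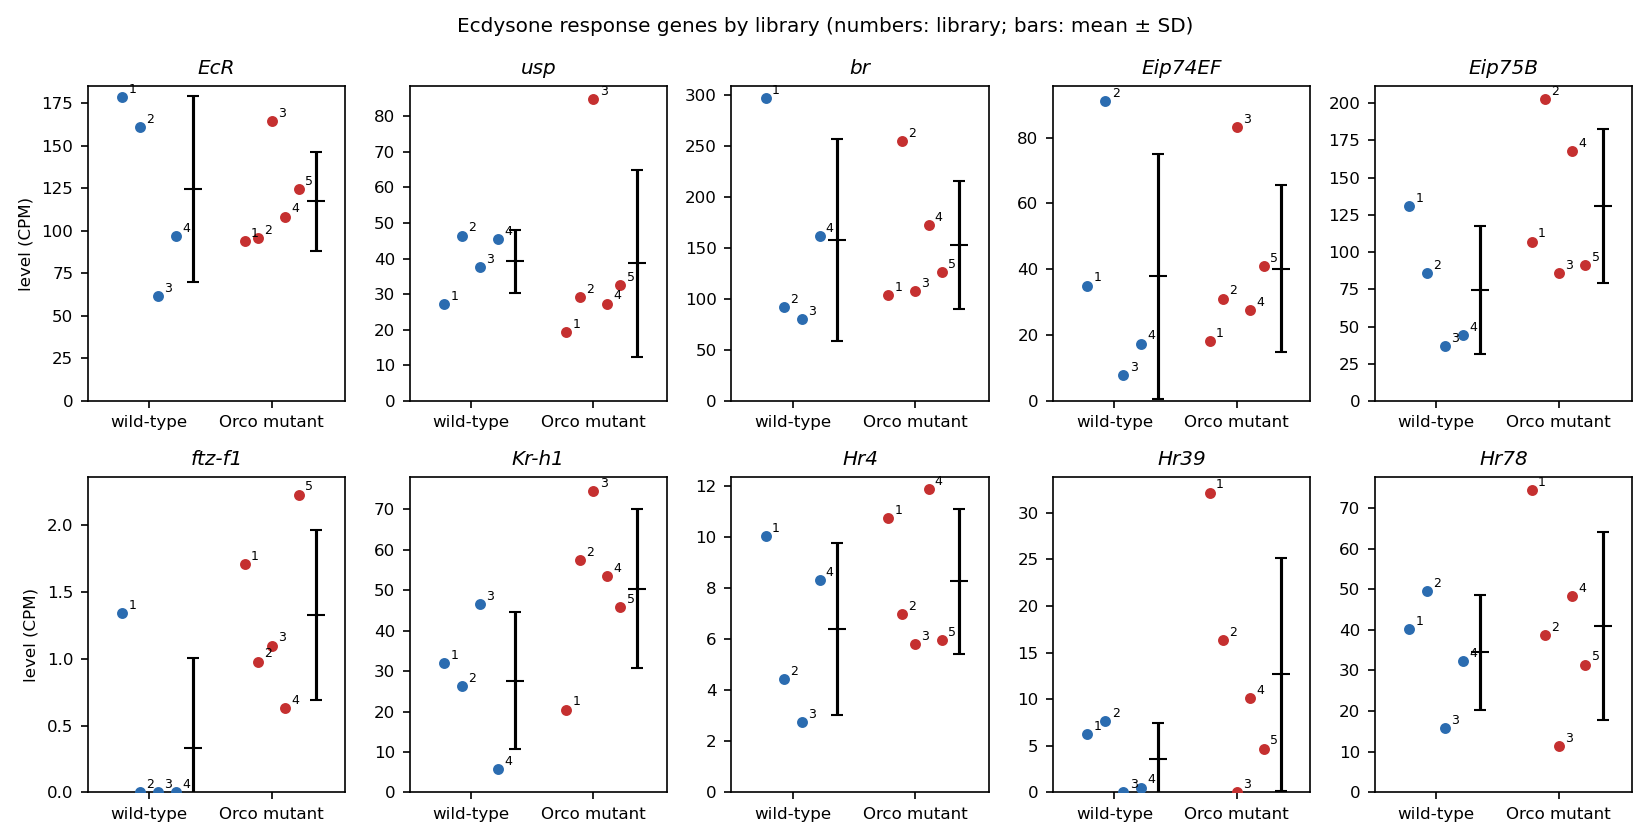
Level of each ecdysone response gene (CPM, linear axes that start at 0) in the 4 wild-type and 5 Orco mutant libraries. Points are libraries, marked by their number, and bars are mean ± SD, drawn down to 0 where the SD is larger than the mean. The genotypes overlap in all 10 genes.

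The ecdysone receptor gene EcR (FBgn0000546, chromosome 2R, 6087873 to 6169087, minus strand, Release 6) encodes the subunit that binds the hormone. Its level in wild-type libraries 1 to 4 was 179, 161, 61.6 and 96.9 CPM, and in Orco mutant libraries 1 to 5 it was 94.0, 95.7, 165, 108 and 124 CPM. Wild-type 1 and 2 and Orco mutant 3 were highest and wild-type 3 was lowest, so that the mutants lay within the wild-type range. The means were 125 ± 54.7 CPM (SD, n = 4) and 117 ± 29.0 CPM (SD, n = 5). The log2 fold change was -0.09 (SE 0.36, 95% interval -0.87 to 0.70, edgeR adjusted p = 0.997), the narrowest interval of the 9 genes tested.

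The other subunit is encoded by usp (FBgn0003964, chromosome X, 2038798 to 2042311, minus strand), the fly homolog of vertebrate RXR. Its level was 27.2, 46.5, 37.6 and 45.5 CPM in wild-type and 19.4, 29.3, 84.9, 27.4 and 32.5 CPM in the mutants. Orco mutant 3 stood above all other libraries, and the remaining mutants lay below 3 of the 4 wild-type libraries. The means were nearly equal, 39.2 ± 8.90 CPM (SD, n = 4) and 38.7 ± 26.3 CPM (SD, n = 5), with a log2 fold change of -0.02 (95% interval -1.15 to 1.11, edgeR adjusted p = 0.999). Without Orco mutant 3 the log2 fold change of usp was -0.53, still not called. The annotated exons of usp share 265 bases with Actn, the alpha-actinin gene on the same strand, and 196 bases with CG4313 on the other strand, and the reads carried no strand. Actn was also highest in Orco mutant 3, at 148 CPM against 18.6 to 66.3 CPM in the other libraries, and the part of the shared bases in the usp level there was not tested.

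Among the early genes, br (FBgn0283451, chromosome X, 1575132 to 1664869, plus strand) encodes the zinc finger proteins of the Broad complex, which specify pupal fate. It was measured at 297, 92.4, 80.6 and 162 CPM in wild-type and at 103, 254, 108, 172 and 127 CPM in the mutants. Wild-type 1 was highest and wild-type 3 lowest, and all mutants lay between them. For br the log2 fold change was -0.05 (SE 0.43, 95% interval -0.98 to 0.89, edgeR adjusted p = 0.997).

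The ETS domain transcription factor gene Eip74EF (FBgn0000567, chromosome 3L, 17558672 to 17619325, minus strand) varied more within a genotype than between them. The wild-type libraries held 35.04, 91.1, 7.83 and 17.4 CPM, an 11.6-fold range, and the mutants 18.2, 31.1, 83.2, 27.6 and 40.9 CPM, a 4.58-fold range. Wild-type 2 and Orco mutant 3 were high and wild-type 3 was low. Its log2 fold change was 0.08 (95% interval -1.42 to 1.59, edgeR adjusted p = 0.997) and moved to 0.995 without wild-type 2 and to -0.37 without Orco mutant 3, with no call in either case.

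The last of the early genes, Eip75B (FBgn0000568, chromosome 3L, 17950953 to 18064696, minus strand), encodes the heme-binding nuclear receptor E75, a repressor in the ecdysone cascade. It had the smallest unadjusted p of the 9 genes. Wild-type libraries held 131, 86.2, 36.8 and 44.4 CPM and mutants 107, 203, 85.7, 168 and 91.4 CPM. The 2 highest libraries were mutants and the 2 lowest were wild-type, while wild-type 1 lay above 3 of the 5 mutants. The means were 74.6 ± 43.3 CPM (SD, n = 4) and 131 ± 51.8 CPM (SD, n = 5). This gave Eip75B a log2 fold change of 0.81 (SE 0.44, 95% interval -0.15 to 1.77) with an unadjusted p of 0.0896 and an edgeR adjusted p of 0.997. Leaving out wild-type 3 gave 0.59 and leaving out wild-type 1 gave 1.23, neither of them called.

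**Figure D2:**
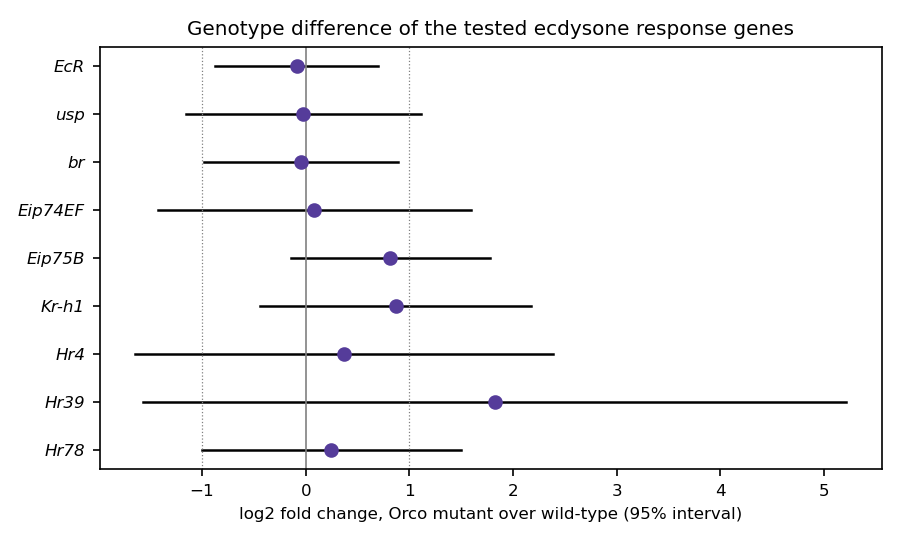
Log2 fold change of Orco mutant over wild-type for the 9 tested genes (points) with 95% intervals from edgeR (lines). The solid vertical line marks no difference and the dotted lines mark a log2 fold change of 1 in either direction. Every interval includes 0, from the narrowest for EcR to the widest for Hr39.

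The remaining nuclear receptors of the response spanned a wide range of levels. Hr78 (FBgn0015239, chromosome 3L, 21494019 to 21497494, minus strand), a receptor required for responses to ecdysone at the onset of metamorphosis, was measured at 40.2, 49.5, 15.9 and 32.2 CPM in wild-type and at 74.3, 38.8, 11.3, 48.3 and 31.5 CPM in the mutants. The mutants held both the highest library, Orco mutant 1, and the lowest, Orco mutant 3. Hr78 had a log2 fold change of 0.25 (95% interval -0.998 to 1.49, edgeR adjusted p = 0.997), and it was -0.08 without Orco mutant 1. Its exons share 443 bases with an antisense RNA gene, whose reads cannot be told apart from those of Hr78 without strand.

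The gene Hr4 (FBgn0264562, chromosome X, 1941940 to 2007956, plus strand) encodes a receptor that acts as a repressor early in metamorphosis. Its level was low in every library, at 10.04, 4.43, 2.75 and 8.31 CPM in wild-type and 10.7, 6.97, 5.79, 11.9 and 5.95 CPM in the mutants. These values rest on 13 to 94 counts per library. Wild-type 3 was lowest, the groups overlapped, and the log2 fold change was 0.37 (95% interval -1.64 to 2.39, edgeR adjusted p = 0.997).

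The largest fold change and the widest interval belonged to Hr39 (FBgn0261239, chromosome 2L, 21237250 to 21259675, plus strand), a receptor related to Ftz-f1 that binds similar DNA sites. Its counts were 28, 43, 0 and 4 in wild-type and 264, 199, 0, 80 and 19 in the mutants. One library of each genotype, wild-type 3 and Orco mutant 3, was at 0, and Orco mutant 1 and 2 held most of the counts. In CPM the means were 3.598 ± 3.90 (SD, n = 4) and 12.7 ± 12.5 (SD, n = 5). The log2 fold change was 1.82 (SE 1.57, 95% interval -1.57 to 5.21, edgeR adjusted p = 0.997) and 1.12 without Orco mutant 1.

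The gene ftz-f1 (FBgn0001078, chromosome 3L, 18750607 to 18801309, minus strand), a competence factor of the prepupa whose transcripts normally appear after the ecdysone peak has passed, was near the limit of detection. It had 6, 0, 0 and 0 counts in wild-type and 14, 12, 4, 5 and 9 counts in the mutants, 6 against 44 in all. Wild-type 1 was within the range of the mutants and the other 3 wild-type libraries were at 0. A count of 0 allows up to 3 counts in a library of this depth, and amplified reads without molecular identifiers are not independent molecules, so this limit covers counting error only. Without the filter on low counts the edgeR test gave a log2 fold change of 2.02 with an unadjusted p of 0.351 (adjusted p = 0.776 over 12748 genes). The exons of ftz-f1 share 2521 bases with a long noncoding RNA gene on the same strand.

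The zinc finger gene Kr-h1 (FBgn0266450, chromosome 2L, 6082603 to 6096498, plus strand), an early target of juvenile hormone that also takes part in the ecdysone cascade, was measured at 31.9, 26.2, 46.5 and 5.85 CPM in wild-type and at 20.5, 57.4, 74.4, 53.5 and 45.8 CPM in the mutants. Wild-type 4 was far below the rest, 3 mutants lay above all wild-type libraries, and Orco mutant 1 lay below 3 of the 4 wild-type libraries. The means were 27.6 ± 16.9 CPM (SD, n = 4) and 50.3 ± 19.7 CPM (SD, n = 5), with a log2 fold change of 0.87 (SE 0.60, 95% interval -0.44 to 2.17, edgeR adjusted p = 0.997). Leaving out wild-type 4 gave 0.53. Of the 5306 exonic bases of Kr-h1, 4168 are shared with CG45075 on the same strand, so the division of reads between these genes is an estimate. CG45075 was assigned only 3 counts in wild-type and 4 in the mutants, against 556 and 1747 for Kr-h1, and this assignment was not tested.

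To compare levels between genes, CPM were divided by annotated transcript length. In CPM per kilobase, wild-type and mutant means were 25.2 and 25.0 for EcR, 22.1 and 22.2 for br, 15.5 and 26.0 for Eip75B, 15.1 and 18.01 for Hr78, and 15.4 and 15.2 for usp. These 5 genes formed the upper group, each above at least 65.3% of the 8010 tested genes with a length, and within it the spread between libraries was larger than the steps between neighbors. Kr-h1 (6.18 and 11.3 CPM per kilobase) and Eip74EF (6.42 and 6.71 CPM per kilobase) followed and also overlapped each other. Hr39 (0.77 and 3.53), Hr4 (0.65 and 0.79) and ftz-f1 (0.06 and 0.24 CPM per kilobase) were lowest, and Hr4 lay above only 1.6% of the tested genes. Thus both receptor subunits and the early genes br and Eip75B were well expressed in the organs of both genotypes, while the genes Hr4, Hr39 and ftz-f1 were scarce.

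The spread between libraries of a genotype was compared with that of other genes as the residual SD of log2(CPM + 1). It was 0.52 for EcR, 0.69 for br and 0.69 for Eip75B, the most abundant genes, against a median of 0.48 over tested genes in the same expression decile. The genes usp and Hr78, at 0.63 and 0.86, lay below the median of 0.90 at their level, and Kr-h1 and Eip74EF, at 0.95 and 1.12, lay above it. At the low levels of Hr4 and Hr39 the median was 1.48, with Hr4 at 0.57 below and Hr39 at 1.78 above. Thus 6 of the 9 genes were more variable, and 3 less variable, than the median gene of similar level.

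**Figure D3:**
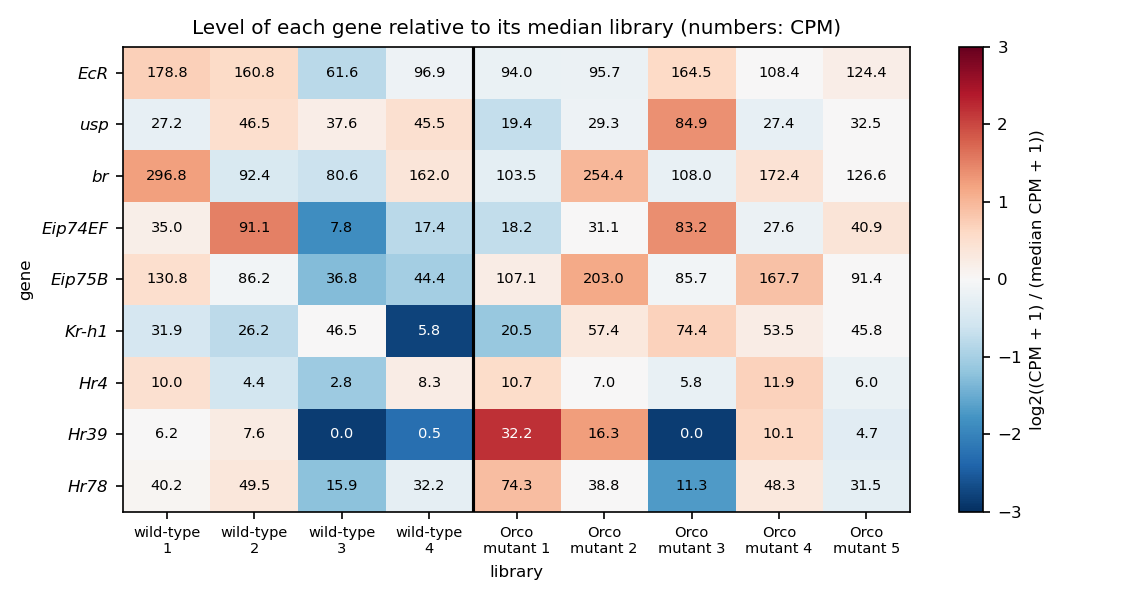
Level of each of the 9 tested genes in each library relative to its median library, as log2((CPM + 1) / (median CPM + 1)), with the CPM printed in each cell. Wild-type 3 is blue for most genes, and the red cells are spread over both genotypes.

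In every tested gene the range over the mutant libraries was wider than the difference between the genotype means. Wild-type 3 was the lowest library for EcR, br, Eip74EF, Eip75B and Hr4, was at 0 for Hr39, was among the 3 lowest for 7 of the 9 tested genes and was among the 3 highest for none. The CPM of the 10 genes summed to 758, 565, 289.6 and 413 in wild-type and to 481, 734, 619, 628 and 506 in the mutants, with wild-type 3 the lowest and wild-type 1 and Orco mutant 2 the highest. No library was high for all genes: Orco mutant 3 was highest for usp and Kr-h1 but lowest for Hr78 and at 0 for Hr39. Orco mutant 3 also had the lowest total (4090474 counts) and the fewest genes with a count (6790, against 8427 to 10935 elsewhere). The part of depth in its high and low levels was not tested. Orco mutant 4 was among the 3 highest for 6 of the 9.

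Markers of other tissues varied between libraries of both genotypes, and wild-type 3 stood apart in the salivary glue genes. The 6 salivary glue genes, textbook ecdysone-regulated genes of the salivary gland late in the third instar, of which all had a count in some library and none passed the filter, summed to 3427 counts there (725 CPM) and to 0, 2 and 0 counts in wild-type 1, 2 and 4. In the mutants they summed to 117, 12, 2, 2 and 417 counts, the last being Orco mutant 5 (103 CPM). Fat body markers ranged from 10.7 to 203 CPM in wild-type, with wild-type 3 the highest, and from 1.15 to 194 CPM in the mutants. Muscle markers ranged from 258 to 1877 and from 83.6 to 1482 CPM, with wild-type 2 the highest. Cuticle markers ranged from 811 to 2083 and from 254 to 8568 CPM, with Orco mutant 5 the highest. Hemocyte markers ranged from 0 to 50.02 and from 1.77 to 119 CPM, with Orco mutant 1 the highest. The part of other tissues, or of larval age, in the levels of the ecdysone response genes was not tested. Without wild-type 3 none of the ecdysone response genes was called, and their log2 fold changes were -0.33 for EcR, -0.07 for usp, -0.27 for br, -0.28 for Eip74EF, 0.59 for Eip75B, 1.22 for Kr-h1, 0.12 for Hr4, 1.43 for Hr39 and 0.02 for Hr78.

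The transcript tables held 59 transcripts of the 10 genes, 52 of which had a count. Of the 25 that passed the filter, 0 were called with edgeR, against 0.0152% of the 13161 transcripts tested, and 1 had an unadjusted p under 0.05, against 3.05% of all. Counts of single transcripts were estimated from 51-base reads, and transcripts that share most of their exons can trade counts. For this reason transcripts whose annotated starts lie within 100 bases were also summed, a grouping chosen after the data were seen. Start groups that share exons can still trade counts.

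Most EcR counts came from transcripts of its most downstream start group, with EcR-RB and EcR-RC at position 6131922 and EcR-RG at 6131841. This start group took 83.2%, 80.4%, 90.2% and 90.9% of EcR counts in wild-type and 100%, 68.7%, 100%, 84.0% and 90.6% in the mutants. Orco mutant 2 used the upstream starts most, and Orco mutant 1 and 3 had no count from them. The middle start at 6157129, used by EcR-RD and EcR-RE, took a mean of 10.9% in wild-type and 8.98% in the mutants, and the first start at 6169087, that of EcR-RA, took 2.93% and 2.36%.

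Use of one dominant start was also seen for usp, br, Kr-h1 and Hr4. The usp-RA transcript took a mean of 91.8% and 92.7% of usp counts. The start group of 8 br transcripts at 1612341 (br-RP at 1612308) took 91.0% and 93.7% of br counts. Kr-h1-RA held 99.4% and 99.9% of Kr-h1 counts, and the upstream Hr4 start held 100% and 99.6%.

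**Figure D4:**
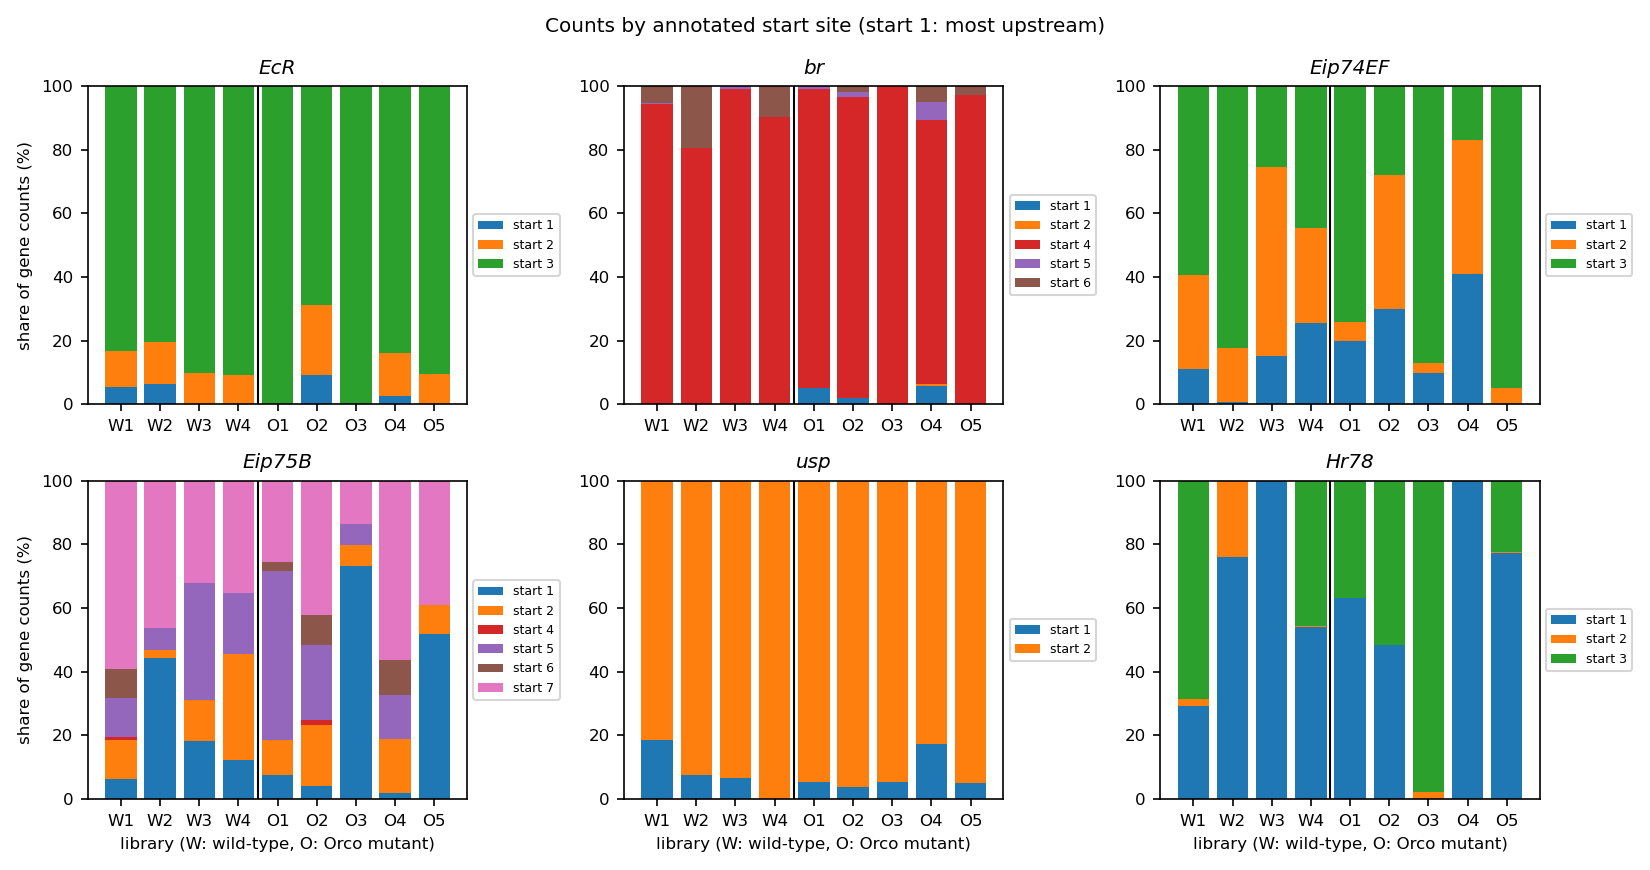
Share of each gene's counts (%) by annotated start site in each library (W, wild-type; O, Orco mutant), with start 1 the most upstream. Starts within 100 bases are summed. Most counts of EcR, br and usp are assigned to a single start group in every library, while the assigned shares of Eip74EF, Eip75B and Hr78 change between libraries of the same genotype.

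In contrast, the counts of Eip74EF, Eip75B and Hr78 were assigned to several starts, and the shares varied between libraries of a genotype. The Eip74EF-RB and Eip74EF-RD starts lie close together, at 17576626 and 17576320. So do the Hr78 starts, at 21497494, 21497183 and 21496941. The part of read assignment in these shares was not tested. The Eip74EF-RD start took 59.3%, 82.4%, 25.6% and 44.6% in wild-type and 74.2%, 27.9%, 87.0%, 17.1% and 94.8% in the mutants. The lowest share was in Orco mutant 4, and wild-type 3 and Orco mutant 2 were also low. Eip74EF-RA, Eip74EF-RC and Eip74EF-RE had identical values in every library and could not be told apart.

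Of the 7 Eip75B starts, Eip75B-RD (17961814) was the most used, with 43.2% in wild-type and 35.2% in the mutants. Eip75B-RF, from the most upstream start at 18064696, took 6.18%, 44.2%, 18.3% and 12.2% in wild-type and 7.51%, 3.98%, 73.2%, 1.92% and 51.9% in the mutants. Orco mutant 3 and 5 and wild-type 2 stood apart from the rest. Eip75B-RC took 53.2% in Orco mutant 1 and 0% in Orco mutant 5, and Eip75B-RB had 0 counts in all libraries.

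No difference in isoform use was called between the genotypes. The share of the leading transcript was compared in 8 genes by a two-sided exact permutation test over libraries, in which 126 groupings allow no p below 0.00794. After adjustment over the 8 genes, 1 gene alone at that p could not be called, so the absence of a call says little. The largest differences were 24.5 percentage points for Hr4-RJ (exact p = 0.278), 15.4 points for br-RA (exact p = 0.270) and 11.2 points for EcR-RB (exact p = 0.460), all higher in the mutants. These differences moved with single libraries: leaving out 1 library gave 10.2 points (without wild-type 3) to 41.4 points (without wild-type 1) for Hr4-RJ, 8.67 (without Orco mutant 5) to 21.7 points (without Orco mutant 2) for br-RA, and 3.10 (without Orco mutant 4) to 17.6 points (without Orco mutant 5) for EcR-RB, with no call. Leaving out 1 library left 56 or 70 groupings, so there too 1 gene alone could not be called. All 8 adjusted p-values with all libraries were at least 0.921, and the grouping by start sites gave no call either. Shares of the leading transcript had an SD between libraries of up to 47.7 points (Hr78-RA in wild-type).

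The one transcript with an unadjusted p under 0.05 was Hr39-RA. Its estimated counts were 4.4, 0, 0 and 0 in wild-type and 126.2, 114.1, 0, 65.3 and 11.6 in the mutants. All mutants but Orco mutant 3 lay above every wild-type library. Hr39-RA had a log2 fold change of 5.14 (95% interval 0.32 to 9.95, unadjusted p = 0.0386, edgeR adjusted p = 1.0). The sister transcript Hr39-RD, from the same start, was not tested. Its counts were 22.8, 42, 0 and 3.9 in wild-type and 108.7, 0, 0, 14.4 and 2.9 in the mutants. Hr39-RA passed the filter on low counts only through mutant libraries. Its fold change and p therefore do not show a genotype difference.

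Several transcripts had counts in one genotype only, and these are described without a test because they were picked after their values were seen. With at least 50 counts in one genotype and 0 in the other there were 4, all in 3 of the 5 mutant libraries. The share of all transcripts that meet this rule was not computed, so the count of 4 cannot be read as unusual. Hr78-RB had 228.2, 64.7 and 75.4 counts in Orco mutant 1, 2 and 4. Hr78-RC had 49.4, 56.9 and 22.2 counts in the same libraries, and br-RN, from the most upstream br start at 1575132, had 44.2, 26.3 and 76. Hr39-RC had 25.7, 29.2 and 4.4 counts in Orco mutant 1, 2 and 5. Orco mutant 1, 2 and 4 were also the 3 deepest libraries, and the part of depth in these counts was not tested. In Hr78 the opposite held for Hr78-RD, with 261 counts in wild-type 1 and 2 against 6 in all mutants. The total counts of Hr78 overlapped between the genotypes. Hr78-RA, Hr78-RB, Hr78-RC and Hr78-RD share a start and are 2266 to 2345 bases long. A count of 0 for any of them cannot be told apart from its reads being assigned to another.

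Other genes of the hormone pathway were examined by role. None of the 5 lists held a gene called by edgeR in either direction. Among 10 coregulators of the receptor, 9 were tested, 5 with a positive and 4 with a negative log2 fold change (median 0.05). Those with the smallest p were rig, a nuclear receptor cofactor (log2 fold change 1.73, edgeR adjusted p = 0.997), and bon, the fly TIF1 homolog (0.91, edgeR adjusted p = 0.997). Among 14 other nuclear receptor genes, 9 were tested with a median of 0.12, and Hr83, tll and dsf had no count.

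Hnf4, a receptor of lipid and glucose metabolism, had the smallest p of the nuclear receptors. It was measured at 12.3, 0.89, 1.69 and 2.60 CPM in wild-type and at 10.1, 11.7, 59.2, 8.33 and 22.6 CPM in the mutants. Only wild-type 1 reached the mutant range. The log2 fold change was 2.36 (SE 1.06, unadjusted p = 0.0447, edgeR adjusted p = 0.992). The gene knrl, a relative of the gap gene knirps, was at -1.65 (edgeR adjusted p = 0.997).

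The list of 17 other ecdysone-induced genes had 13 tested members, 10 with a positive and 3 with a negative log2 fold change and a median of 0.46, with 0 called. ImpE2, an ecdysone-inducible gene of imaginal discs, had 17, 0, 9 and 2 counts in wild-type and 371, 24, 0, 57 and 1 in the mutants (log2 fold change 2.89, edgeR adjusted p = 0.997). Orco mutant 1 alone held most of these counts. That library was also the highest for ImpE1, at 26.9 CPM against 0 to 3.28 CPM elsewhere. The same held for Hr46, the DHR3 receptor gene, at 20.35 against 0 to 4.46 CPM, and for Eip78C, at 23.3 against 0.28 to 13.8 CPM. These genes were named after their values were seen. In the same list, ImpL3 and E23 were lowest in Orco mutant 1, at 110 and 1.10 CPM. Orco mutant 1 was also the highest library for the 8 hemocyte markers, at 119 CPM against 0 to 76.6 CPM elsewhere. The part of hemocytes in the levels of ImpE2, ImpE1, Hr46 and Eip78C was not tested. Eip63F-1, a calcium-binding protein gene, had a log2 fold change of 0.96 (edgeR adjusted p = 0.997).

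Genes of ecdysone synthesis, conversion and transport were mostly undetected or rare, and only 3 of 14 passed the filter, with spok and phm at 0 counts in all libraries. Npc1a, a sterol trafficking gene that supplies cholesterol for steroid synthesis and is active in many tissues, was the one tested gene of this list whose genotypes did not overlap, as was the case for 3.87% of all genes tested. It was measured at 160, 220.4, 166 and 195 CPM in wild-type and at 62.5, 113, 50.98, 97.1 and 90.5 CPM in the mutants. All mutants lay below all wild-type libraries. Its log2 fold change was -1.16 (SE 0.31, 95% interval -1.84 to -0.48) with an unadjusted p of 0.00275, which did not pass adjustment over all genes (edgeR adjusted p = 0.538). Oatp74D, the ecdysone importer, was at 34.4, 15.96, 16.3 and 52.6 CPM in wild-type and 34.7, 43.5, 97.8, 23.7 and 109 CPM in the mutants (log2 fold change 1.05, edgeR adjusted p = 0.997).

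For juvenile hormone, 6 of 7 matched genes were tested, 3 in each direction, with a median of -0.25. Met, a juvenile hormone receptor gene upstream of Kr-h1, was measured at 0.89, 10.3, 13.1 and 6.63 CPM in wild-type and at 12.8, 6.97, 67.2, 7.19 and 32.2 CPM in the mutants (log2 fold change 1.71, edgeR adjusted p = 0.997). Orco mutant 3, the highest library for Kr-h1 and usp, was also the highest for Met. The juvenile hormone epoxide hydrolase gene Jheh3 was lower in every mutant than in every wild-type library, at 23.7 to 45.5 CPM against 0.55 to 23.3 CPM (groups without overlap were 3.87% of all genes), but its log2 fold change of -1.10 was not called (edgeR adjusted p = 0.997).

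**Figure D5:**
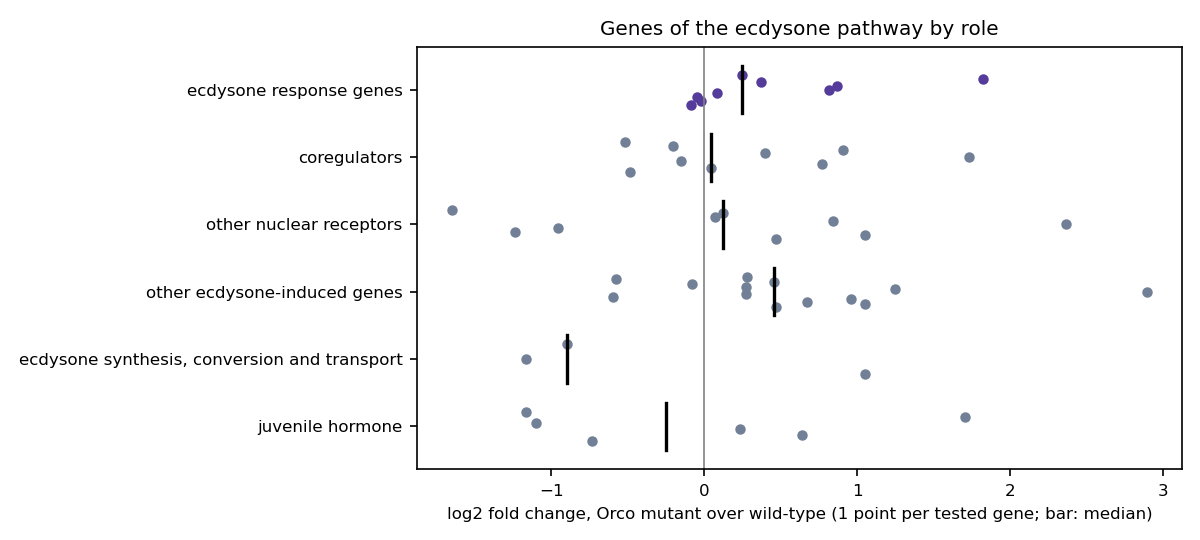
Log2 fold change of Orco mutant over wild-type for the tested genes of each list, 1 point per gene, with the median of the list as a vertical bar. The points of every list lie on both sides of 0 and none of the genes was called.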

How the data were processed

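Reads from Smart-seq2 libraries (no molecular identifiers, no strand) were demultiplexed with CASAVA 1.8.2. Reads with adapters were discarded with cutadapt 1.9.1. The authors quantified the rest with kallisto 0.43.0 against a FlyBase transcriptome of genome Release 6. The deposited values are estimated counts per transcript and, summed by the authors, per gene. A further Orco mutant library, left out by the authors for low reads, was not analysed here.

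Estimated counts were rounded and tested with edgeR 4.0.16 (R 4.3.3; TMM; filterByExpr with a minimum of 10 counts and a total of 15; quasi-likelihood test with genotype as the only term). P-values were adjusted by Benjamini-Hochberg over all genes or transcripts tested, at 0.05. The fold changes carry no prior count. Each procedure was tested on simulated data. Positions are those of the Ensembl annotation of Release 6. The alternatives tried were DESeq2 1.42.0, limma 3.58.1 (voom, with and without library weights), RLE size factors, other filters, library totals without rRNA, the replicate number as a block, and leaving out each library. Replicate numbers did not pair the samples.

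The genes and lists were chosen with earlier results of these data known. All 10 genes are named, and of each pathway list the 2 tested genes with the smallest p and any gene called.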

Additional observations from a re-analysis of the deposited data

Results flagged for a closer look

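Among 36 sets of values (level or leading transcript share of a gene within a genotype), 5 had 1 library far from the others. Chance gives about 1 in 20 where values are not tied, a rate that does not apply to ftz-f1 and Kr-h1-RA, whose other libraries were tied at 0 or at 100%. The level of usp in Orco mutant 3 was 84.9 CPM, against 32.5 CPM in the next highest mutant. The level of ftz-f1 in wild-type 1 was 1.34 CPM, with the other wild-type libraries at 0. The share of usp-RA in Orco mutant 4 was 82.8% of usp counts, against 94.7% in the next lowest mutant. The share of Kr-h1-RA was 97.7% in wild-type 1 and 99.4% in Orco mutant 2, with all other libraries at 100%, and rests on 3.3 and 3.9 estimated counts of Kr-h1-RB.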

How the results depend on the processing

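No ecdysone response gene, member transcript, pathway gene or leading transcript share was called under any alternative run. For the shares, 1 gene alone could not have been called, either with all libraries or when 1 library was left out. The lowest edgeR, DESeq2 or limma adjusted p of any of the 9 genes was 0.148, for Eip75B with limma-voom and library weights. Over all genes, edgeR called 3, DESeq2 61, limma-voom 12, limma-voom with library weights 91 and edgeR without a filter 5, and leaving out 1 library gave between 1 and 3. Over all transcripts, edgeR called 2, limma-voom 11 and edgeR without a filter 4, and leaving out 1 library gave between 0 and 1. Fold changes near 0 changed sign: usp was 0.007 with RLE size factors and 0.004 with DESeq2, and br was 0.158 with limma-voom and 0.205 with library weights. With limma-voom usp was at -0.43, and with library weights Eip75B was at 1.27, Kr-h1 at 1.34 and Hr39 at 3.20. Leaving out 1 library gave -0.33 to 0.14 for EcR, -0.53 to 0.15 for usp, -0.31 to 0.46 for br, -0.37 to 0.995 for Eip74EF and -0.082 to 0.49 for Hr78. In these fits no sign changed for Eip75B (0.59 to 1.23), Kr-h1 (0.53 to 1.22), Hr4 (0.12 to 0.68) or Hr39 (1.12 to 2.50). The causes were not tested.

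Libraries with the same replicate number did not deviate together (correlations of 0.027, -0.094, -0.024 and -0.028 for the 4 pairs). With the replicate block, edgeR called 4 genes, 0 transcripts and none of the ecdysone response genes, and br was at 0.13. With 4 and 5 libraries, the 95% interval of every tested gene other than EcR and br includes a 2-fold change in at least 1 direction.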
